A study of Homo sapiens with 12 samples.

Results

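The transcripts described here come from 10 genes of the NF-kappaB system. NFKB1, NFKB2, REL, RELA and RELB encode the 5 subunits of the transcription factor. NFKBIA and NFKBIE encode the inhibitors IkB-alpha and IkB-epsilon, TNFAIP3 encodes the ubiquitin-editing enzyme A20, TNIP1 encodes an A20-binding partner, and BCL3 encodes a nuclear IkB protein. Members were all probe sets (groups of short probes read as 1 value) whose annotated gene symbol is one of these names. Of the 10 genes, 9 had at least 1 probe set annotated to that gene alone, 19 probe sets in all, out of 54675 probe sets and 19775 genes on the arrays. The 2 probe sets of BCL3 are annotated to MIR8085 as well, so they were not assigned to a gene and are described apart.

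RNA was measured on 12 arrays. The cells were L428 and L1236, lines established from classical Hodgkin lymphoma, a tumour that arises from B cells. Cells were left untreated or were exposed to 1 µM 5-Aza-dC for 24 h and then kept for 72 h in medium without the drug, with 3 arrays for each of the 4 groups. 5-Aza-dC, or decitabine, is built into DNA in place of deoxycytidine and blocks the methyltransferases there, and dividing cells then lose DNA methylation. The title of the series points to survival pathways that the drug may switch on, and the question here is whether the genes of NF-kappaB and of its inhibitors respond in either line. Each line is a single tumour-derived culture, both lines were grown in the same medium with serum, and no vehicle for the untreated cells is named in the labels. The protocol speaks of triplicates without naming separate cultures, so p-values measure the spread between these samples, which may be technical. The source name of untreated L1236 replicate 1 describes treated L428 cells, and that array was grouped by its description.

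NF-kappaB dimers rest in the cytoplasm bound to IkB proteins. When receptors activate the IkB kinases, IkB-alpha and IkB-epsilon are degraded, dimers of RELA, REL and p50 (the product of NFKB1) enter the nucleus, and they induce the genes of their own inhibitors. NFKBIA, NFKBIE, TNFAIP3 and TNIP1 are such feedback genes, and NFKB1, NFKB2, REL, RELB and BCL3 are also induced by NF-kappaB. The tumour cells of classical Hodgkin lymphoma, called Hodgkin and Reed-Sternberg cells, are known for constant NF-kappaB activity, and lesions of NFKBIA, NFKBIE and TNFAIP3 occur in this disease. L428 is known to carry defective NFKBIA, so transcript levels of an inhibitor in these lines say nothing about working protein. In bulk samples of this kind, fewer cells that express a gene and less RNA per cell cannot be told apart.

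The values are log2 signals, and a difference of 1 is a doubling of the signal. A difference was called where the adjusted p of limma, fitted to all 12 arrays and adjusted by Benjamini-Hochberg over the 19775 genes, was below 0.05. Errors of changes are standard errors. Over probe sets, correlations ran from 0.981 to 0.998 within a group, from 0.959 to 0.989 between treatments of a line, and from 0.901 to 0.925 between the lines. Replicate 1 of the treated arrays lay farthest from its group mean in both lines, with SDs of the deviations of 0.449 in L428 and 0.384 in L1236 against 0.156 to 0.315 on the other arrays. Treated L428 replicate 1 was closer to the untreated L428 arrays (correlations of 0.987 to 0.989) than to the other treated L428 arrays (0.981 and 0.983). Values are therefore also given without the 4 arrays numbered 1. The Hodgkin markers TNFRSF8 (CD30), IRF4 and BATF3 had mean signals of 9.57 to 10.39, 11.15 to 12.52 and 13.76 to 14.51 in the 4 groups. Of the same list of 12, TRAF1 lay at 11.49 and 11.69 in untreated and treated L428 but at the floor in L1236 (2.10 and 2.07), and CCL22 lay at 3.10 and 3.61 in the untreated lines. The B-cell markers MS4A1 (CD20) and CD79A lay at 2.46 to 2.55 and 3.53 to 3.78, near the low end of the scale, where values of about 2 to 3 are a floor. Of the 10 B-cell genes, PAX5, POU2AF1 and SPIB were high in some groups only. CD79B, CD22, EBF1, POU2F2 and BLK lay at 2.18 to 6.40 in the 4 groups. In untreated and treated L428, PAX5 was at 5.32 and 6.54 and POU2AF1 at 2.39 in both. In untreated and treated L1236, PAX5 was at 11.78 and 12.61, POU2AF1 at 13.41 and 12.23 and SPIB at 2.66 and 9.19, and in L428 SPIB was at 8.86 and 9.42.

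NF-kappaB binds 10-base kappaB sequences, and the promoters of the members are shown here because 4 members rose in L1236. RefSeq (GRCh38.p14) held 13 promoter windows for 8 of the 10 members, each of 300 bases from 250 before to 50 after a start site. The classical kappaB consensus, searched by its name on both strands, matched in 8 of these 13 windows, against 11.3% of all 35116 windows. Counted by gene, 7 of the 8 members had a match, against 13.3% of 27305 genes. A match is a string of letters and not a measured binding site, and these genes are known NF-kappaB targets, so the count is no independent result. The 250 bases before the start sites of TNFAIP3 (chr6:137867009-137867258, plus strand) and NFKBIA (chr14:35404750-35404999, minus strand) are given on the strand of the gene, with matches in capitals. In TNFAIP3, 2 matches begin 67 and 55 bases before the start site, both in the reverse orientation. In NFKBIA, 1 match begins 81 bases before it, also in reverse orientation.
TNFAIP3: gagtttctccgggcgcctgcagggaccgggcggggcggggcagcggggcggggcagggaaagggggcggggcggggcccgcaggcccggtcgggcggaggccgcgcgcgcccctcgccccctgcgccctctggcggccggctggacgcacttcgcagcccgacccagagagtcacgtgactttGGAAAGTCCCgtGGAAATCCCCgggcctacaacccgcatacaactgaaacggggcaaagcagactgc
NFKBIA: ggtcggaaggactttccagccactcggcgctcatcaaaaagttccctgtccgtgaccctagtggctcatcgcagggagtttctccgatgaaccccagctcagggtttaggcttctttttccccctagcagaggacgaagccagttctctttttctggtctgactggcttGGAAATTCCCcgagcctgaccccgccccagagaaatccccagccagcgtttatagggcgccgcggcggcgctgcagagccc

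Stretches of 30 bases around a match to the same consensus are shown for NFKB1, NFKB2, REL and TNIP1. They lie at chr4:102501300-102501329 in NFKB1, at chr10:102394461-102394490 in NFKB2, at chr2:60881517-60881546 in REL (all plus strand) and at chr5:151081057-151081086 in TNIP1 (minus strand). The capitals mark the match, which begins 49, 107, 47 and 42 bases before the start site in this order.
NFKB1: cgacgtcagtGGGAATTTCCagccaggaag
NFKB2: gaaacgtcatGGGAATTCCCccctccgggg
REL: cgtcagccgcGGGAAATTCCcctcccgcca
TNIP1: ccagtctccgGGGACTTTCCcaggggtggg

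The 2 windows of RELA held no match, and in BCL3 the match lay after the start site. The windows also differ in CpG dinucleotides, the sites at which human DNA is methylated. The median over all windows was 14 CpG. The windows that hold the bases printed above had 35 in TNFAIP3, 22 in NFKBIA, 35 in NFKB1, 28 in NFKB2, 41 in REL and 36 in TNIP1. Further windows of these genes had 28 in NFKB1, 20 and 21 in NFKB2 and 3 in TNIP1. One RELA window (chr11:65662867-65663166) had 48 CpG, more than 98% of all windows, and the other (chr11:65663808-65664107) had 7. Methylation was not measured in these samples.

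Signals of different probe sets are not on a common scale, so levels are compared only between groups within a gene. The plot of single arrays shows the 4 groups of each gene.

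**Figure D1:**
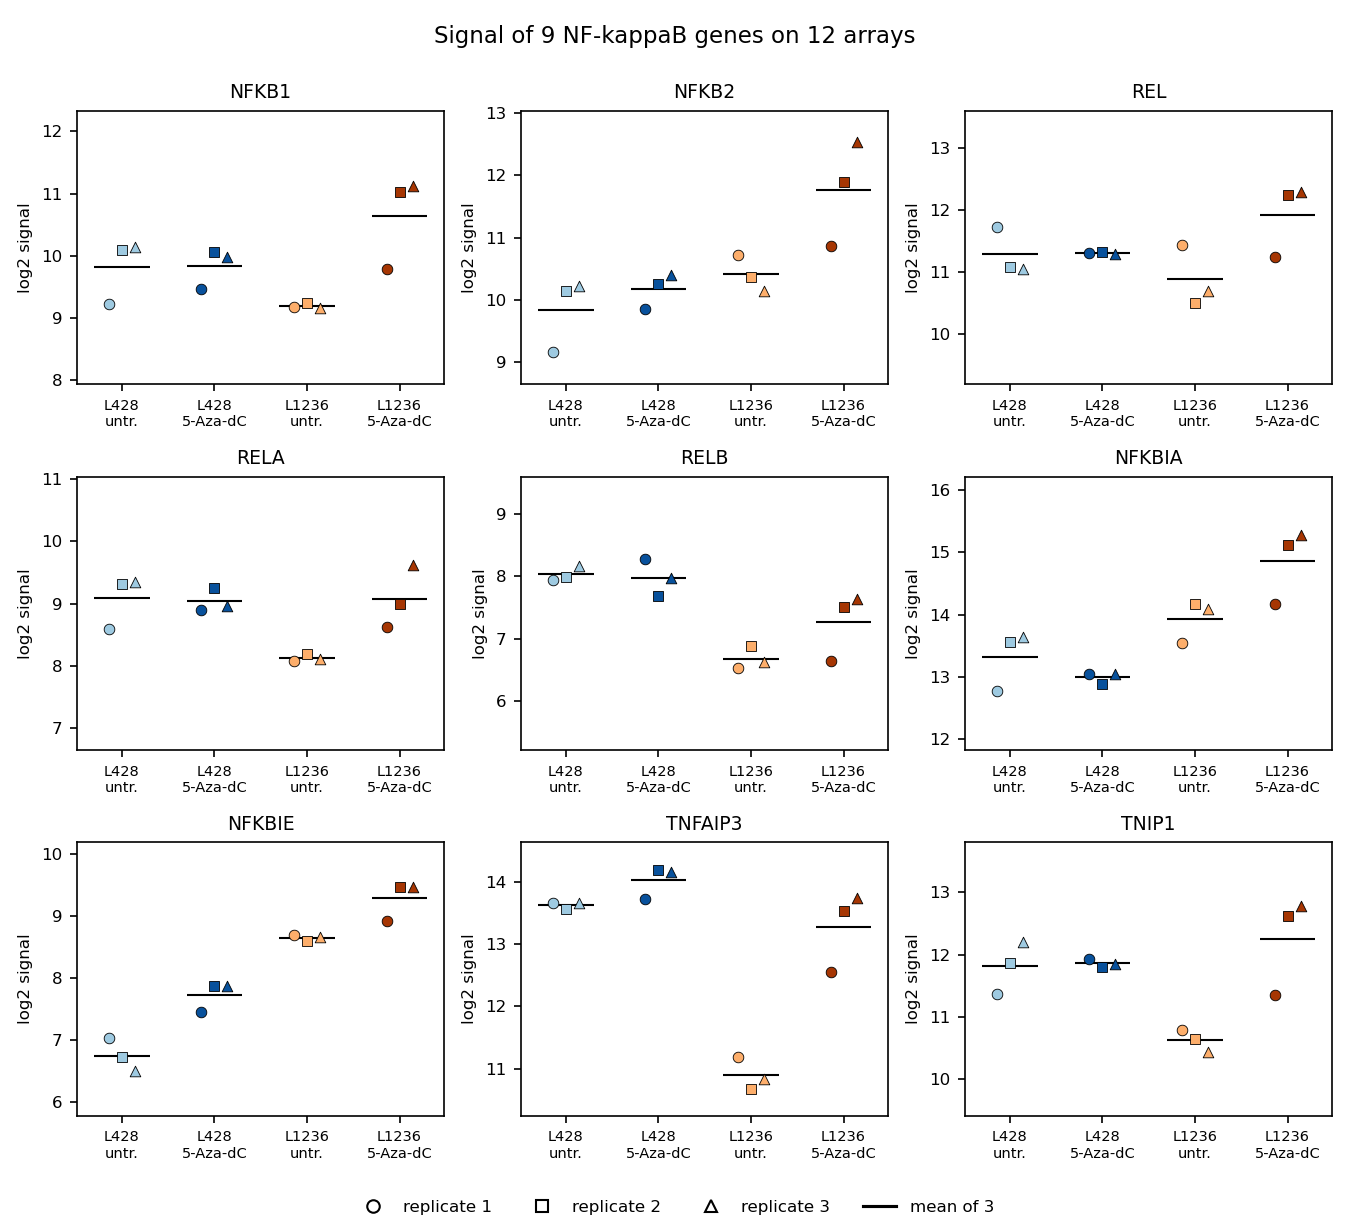
Log2 signal (vertical axis, a span of 4.4 units in every panel) of 9 genes on 12 arrays, 1 panel a gene, with the 4 groups along the horizontal axis. Symbols mark replicates 1 to 3 and lines the mean of 3. In treated L1236, replicate 1 is the lowest of the 3 arrays in all 9 panels, and TNFAIP3 shows the widest gap between untreated L1236 and the other groups.

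Before treatment the 2 largest differences between the lines among the members were in inhibitors. TNFAIP3 was lower and NFKBIE was higher in untreated L1236 than in untreated L428, and RELB, RELA and TNIP1 were also lower in L1236. In total 1 of 9 genes was called higher and 4 were called lower in L1236, against 15.2% and 13.6% of all genes. NFKB1, NFKB2, REL and NFKBIA were not called. The arrays of the untreated lines did not overlap for the same 5 genes, and for 41.3% of all genes.

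TNFAIP3 had signals of 13.67, 13.57 and 13.66 in untreated L428 and of 11.18, 10.68 and 10.84 in untreated L1236. Every L1236 array lay more than 2 units below every L428 array. The difference was -2.73 ± 0.29 (adjusted p = 8.62e-05), a signal in L1236 of 0.15 times that in L428. NFKBIE ran the other way, at 7.03, 6.72 and 6.49 in L428 and 8.68, 8.59 and 8.66 in L1236, without overlap. It was higher in L1236 by 1.90 ± 0.19 (adjusted p = 5.85e-05), or 3.72-fold.

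RELB, the subunit of the alternative NF-kappaB pathway, had signals of 7.95, 7.99 and 8.16 in untreated L428 and of 6.53, 6.87 and 6.63 in untreated L1236. It was lower in L1236 by 1.36 on the log2 scale (difference -1.36 ± 0.25, adjusted p = 0.00308). RELA, the main activating subunit, had signals of 8.58, 9.32 and 9.35 in L428 and of 8.07, 8.18 and 8.11 in L1236, without overlap (difference -0.96 ± 0.27, adjusted p = 0.0241). TNIP1 had signals of 11.37, 11.86 and 12.19 in L428 and of 10.78, 10.64 and 10.43 in L1236 (difference -1.19 ± 0.35, adjusted p = 0.0308). The calls of TNFAIP3, NFKBIE and RELB held with each of the 6 untreated arrays left out in turn. Those of RELA and TNIP1 were lost without untreated L428 replicate 2 or 3 or without any 1 untreated L1236 array, with adjusted p up to 0.0896 and 0.110.

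At their brightest probe sets, the other 4 genes overlapped between the untreated lines. NFKB1 was at 9.81 ± 0.52 (SD, n = 3) in L428 and 9.19 ± 0.04 (SD, n = 3) in L1236, NFKB2 at 9.84 ± 0.60 and 10.41 ± 0.29, REL at 11.29 ± 0.38 and 10.88 ± 0.49, and NFKBIA at 13.32 ± 0.48 and 13.94 ± 0.34. Untreated L428 replicate 1 was the lowest of its group in NFKB1, NFKB2 and NFKBIA and the highest in REL. Without the arrays numbered 1, NFKB1 (-0.91, adjusted p = 0.000128) and REL (-0.47, adjusted p = 0.00373) were also called lower in L1236 and NFKBIA was called higher (0.54, adjusted p = 0.00435), which made 2 genes higher and 6 lower. All genes were then called higher in 19.9% and lower in 18%.

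After 5-Aza-dC, TNFAIP3, TNIP1, NFKB1 and RELA rose in L1236. All 9 measured genes had a positive estimate, with a median of 1.04 against -0.03 over all genes. The 4 named were called, so 4 of 9 were higher and 0 lower, against 8.59% and 6.35% of all genes. The other 5 genes, NFKB2, REL, RELB, NFKBIA and NFKBIE, had changes of 0.58 to 1.35 and adjusted p of 0.0522 to 0.168 by limma. Each of the 9 had an unadjusted p below 0.05. The share of all genes at this unadjusted threshold was not counted, here or in the other comparisons. Treated and untreated arrays did not overlap for 7 of the 9 genes, and for 57.3% of all genes. All 9 members had mean signals above the median gene, so the shares of all genes include many dimmer genes. With genes below that median left out, 8 of 9 members were called higher and 0 lower. In that fit 1428 of 9888 genes were higher and 1414 lower.

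Among the feedback inhibitors of L1236, TNFAIP3 changed most. Its signals were 11.18, 10.68 and 10.84 in untreated cells and 12.55, 13.53 and 13.74 in treated cells. All treated arrays lay above all untreated arrays, and replicate 1 was the lowest treated array. The change was 2.37 ± 0.29 (adjusted p = 0.00102), or 5.19-fold, and the call held with each of the 6 arrays left out in turn. TNIP1, whose product binds A20 and restrains the same signals, had signals of 10.78, 10.64 and 10.43 before and 11.35, 12.62 and 12.78 after treatment. The groups did not overlap, and the change was 1.63 ± 0.35 (adjusted p = 0.0159), or 3.10-fold.

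The changes of the IkB genes in L1236 were smaller and were not called. NFKBIA was at 13.55, 14.17 and 14.09 in untreated and 14.18, 15.12 and 15.28 in treated L1236. The lowest treated value lay just above the highest untreated value, and the change of 0.92 ± 0.33 was not called (adjusted p = 0.0957). With the replicate number as a block over both lines it was called (adjusted p = 0.0291), and with a block within each line it was not (adjusted p = 0.0609). Same-numbered L1236 arrays did not deviate together, so neither block rests on a pairing in this line. NFKBIE was at 8.68, 8.59 and 8.66 before and 8.92, 9.46 and 9.47 after treatment, without overlap, and its change of 0.64 ± 0.19 missed the threshold (adjusted p = 0.0522).

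Of the subunits in L1236, NFKB1 rose from 9.18, 9.24 and 9.16 to 9.78, 11.03 and 11.12, a change of 1.45 ± 0.38 (adjusted p = 0.0329) or 2.73-fold. Its untreated arrays lay close together, and the treated replicate 1 stood more than 1 unit below the other treated arrays. RELA rose from 8.07, 8.18 and 8.11 to 8.62, 8.99 and 9.62, a change of 0.95 ± 0.27 (adjusted p = 0.0450) or 1.94-fold. NFKB2, the precursor of p52 in the alternative pathway, went from 10.72, 10.37 and 10.15 to 10.86, 11.89 and 12.53 (1.35 ± 0.43, adjusted p = 0.0690). The lowest treated NFKB2 array lay just above the highest untreated one. REL changed by 1.04 ± 0.33 (adjusted p = 0.0686) and RELB by 0.58 ± 0.25 (adjusted p = 0.168), and in both the treated replicate 1 lay within the untreated range.

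Treated L1236 replicate 1 was the lowest of its group in 9 of 9 members. Over all genes it was the lowest in 25.7%, and over the 1699 genes called higher in L1236 it was the lowest in 73.1%. Without that array alone, all 9 members were called higher in L1236, beside 2335 of 19775 genes higher and 2153 lower. Without all 4 arrays numbered 1, all 9 members were called higher as well. In the latter fit the changes ran from 0.82 (RELB, adjusted p = 0.00815) to 2.88 (TNFAIP3, adjusted p = 3.54e-05), and 16.7% of all genes were called higher and 17.7% lower. With a block within each line, RELA (adjusted p = 0.0585) and TNIP1 (adjusted p = 0.0584) lost their calls in L1236. With only the 2 compared groups in the fit, NFKB1 (adjusted p = 0.0832), RELA (0.0882) and TNIP1 (0.0747) lost theirs. TNIP1 also lost its call with the mean of its probe sets (adjusted p = 0.0778). Without any 1 of untreated L1236 replicates 2 and 3 or treated L1236 replicates 2 and 3, TNFAIP3 alone stayed called. NFKB1 and RELA also lost their calls without untreated L1236 replicate 1, with adjusted p up to 0.124 and 0.137 over the arrays left out.

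**Figure D2:**
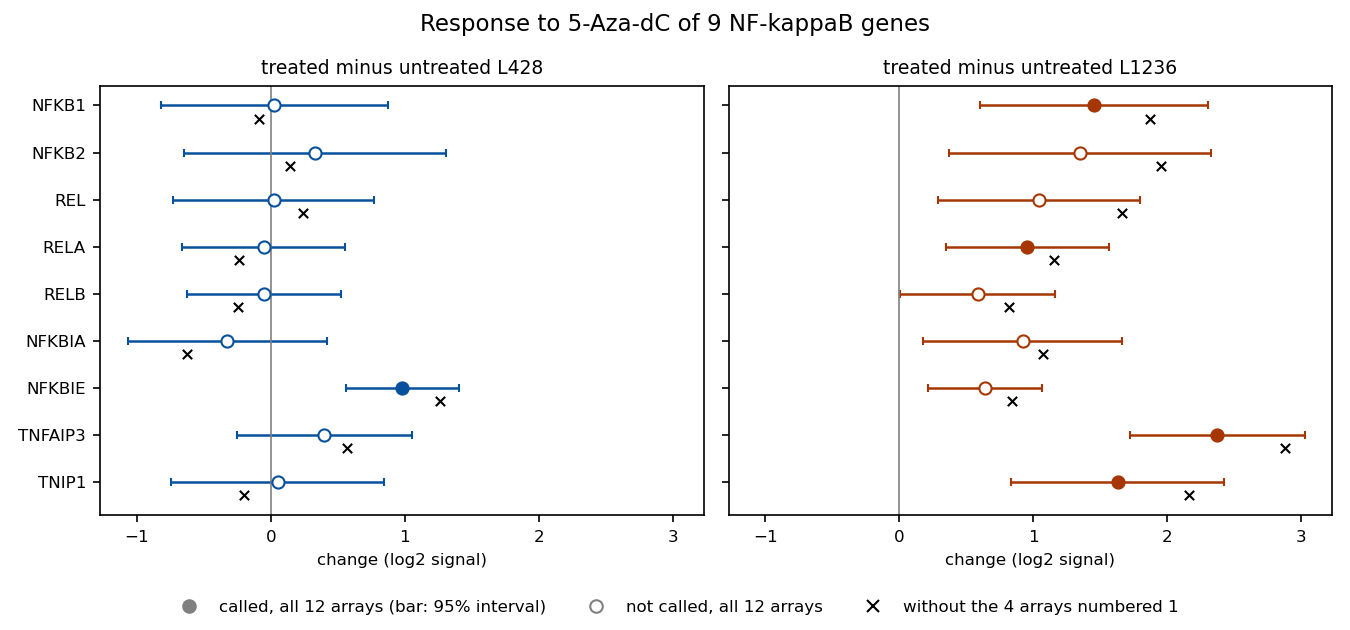
Change in log2 signal after 5-Aza-dC (horizontal axis) of 9 genes (vertical axis) in L428 (left) and L1236 (right). Circles are limma estimates over all 12 arrays, filled where called, with 95% intervals, and crosses are estimates without the 4 arrays numbered 1. In L1236 every circle lies to the right of 0, from 0.58 for RELB to 2.37 for TNFAIP3, while in L428 the filled circle is NFKBIE at 0.98.

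In L428, NFKBIE rose, and none of the other 8 members was called, so 1 of 9 was higher and 0 lower, against 3.32% and 1.34% of all genes. By limma's unadjusted p below 0.05, too, 1 was higher and 0 lower. The 8 other changes lay between -0.33 (NFKBIA) and 0.40 (TNFAIP3). The median change of the 9 was 0.03, against -0.02 over all genes. With genes below the median signal left out, 1 of 9 was called higher, beside 751 of 9888 genes higher and 357 lower. Treated and untreated arrays did not overlap for NFKBIE and TNFAIP3, 2 of 9, and for 17.9% of all genes.

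NFKBIE, the gene of IkB-epsilon, which binds REL and RELA dimers, had signals of 7.03, 6.72 and 6.49 in untreated and 7.45, 7.87 and 7.87 in treated L428. Every treated array lay above every untreated array, and still below every L1236 array. The change was 0.98 ± 0.19 (adjusted p = 0.0217), or 1.97-fold. Same-numbered L428 arrays deviated together, although arrays 2 and 3 did so across numbers as well. With the replicate number as a block within each line the adjusted p was 0.0907, while with 1 block over both lines it was 0.0409. The call was also lost without untreated L428 replicate 2 or 3 or treated L428 replicate 2 or 3, with adjusted p of 0.0737 to 0.0967.

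TNFAIP3 in L428 was at 13.67, 13.57 and 13.66 before and 13.72, 14.20 and 14.17 after treatment. All treated arrays lay above all untreated ones, but the change of 0.40 ± 0.29 was not called (adjusted p = 0.529). NFKBIA was at 12.76, 13.56 and 13.63 before and 13.05, 12.89 and 13.04 after treatment, and here untreated replicate 1 was the lowest of all 6 arrays. Its change was -0.33 ± 0.33 (adjusted p = 0.627). TNIP1 changed by 0.05 ± 0.35, with a 95% interval of -0.75 to 0.85.

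At the brightest probe set of each gene, the 5 subunits changed little on average in L428. The estimates were 0.03 ± 0.38 for NFKB1, 0.33 ± 0.43 for NFKB2, 0.02 ± 0.33 for REL, -0.05 ± 0.27 for RELA and -0.05 ± 0.25 for RELB. Their 95% intervals reach from -0.82 to 0.88 for NFKB1 and from -0.65 to 1.30 for NFKB2, and the latter reaches close to the L1236 estimate of 1.35 for NFKB2. Untreated L428 replicate 1 was the lowest of its group in NFKB1, NFKB2 and RELA, at 9.22, 9.16 and 8.58.

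Without the arrays numbered 1, the inhibitors of L428 were called in both directions. NFKBIE (1.26, adjusted p = 0.000401) and TNFAIP3 (0.57, adjusted p = 0.00847) were higher and NFKBIA (-0.63, adjusted p = 0.00407) was lower after treatment. None of the 5 subunits was called, and REL came closest at 0.24 (adjusted p = 0.0532). In that fit 14.4% of all genes were called higher and 14.6% lower, so a call was far more common than with all arrays. The remaining 2 arrays of a group lay close together, and each such group rests on these 2 arrays.

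The responses of the lines were compared by the difference of the changes, L1236 minus L428. TNFAIP3 was called, with a response 1.98 ± 0.41 larger in L1236 (adjusted p = 0.0299), and it was 1 of 9 higher and 0 lower, against 2.66% and 1.96% of all genes. By limma's unadjusted p below 0.05, 5 were higher and 0 lower, a count for which the share of all genes was not taken. The difference was positive for 8 of 9 members, and NFKBIE had -0.34 ± 0.26. TNIP1 (1.58 ± 0.50, adjusted p = 0.130), NFKB1 (1.42 ± 0.53, adjusted p = 0.203), NFKBIA (1.25 ± 0.46, adjusted p = 0.202) and RELA (1.01 ± 0.38, adjusted p = 0.209) had 95% intervals above 0 without reaching the threshold. The 9 differences use the same 12 arrays and are not independent.

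The TNFAIP3 difference had adjusted p of 0.0502 with the replicate number as a block, 0.123 with a block within each line and 0.0536 with the mean of the probe sets of each gene. It was called without untreated L1236 replicate 1, treated L428 replicate 1 or treated L1236 replicate 1, and lost without any 1 of the other 9 arrays, with adjusted p up to 0.0794. Without the 4 arrays numbered 1 the difference was 2.31 (adjusted p = 0.000477), 8 members were called higher and NFKBIE was called lower (-0.43, adjusted p = 0.0471). All genes were then called higher in 11.4% and lower in 12.4%.

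Set side by side, the levels of some members were closer between the lines after treatment, and those of others were farther apart. TNFAIP3 was 2.73 lower in L1236 than in L428 before treatment and 0.76 lower after it (13.27 ± 0.64 against 14.03 ± 0.27, SD, n = 3 each). RELA was at 9.08 ± 0.50 and 9.03 ± 0.19 in the treated lines, and TNIP1 at 12.25 ± 0.78 and 11.86 ± 0.06, with overlap in both. RELB was at 7.26 ± 0.54 in treated L1236 and 7.98 ± 0.30 in treated L428, without overlap. NFKBIA was at 14.86 ± 0.60 in treated L1236 and 12.99 ± 0.09 in treated L428, without overlap, and NFKB2 at 11.76 ± 0.84 and 10.17 ± 0.28. L1236 minus L428 went from -0.62 to 0.80 for NFKB1 and from -0.41 to 0.62 for REL. The gap between the lines was smaller after treatment for 5 of 9 genes (RELA, RELB, NFKBIE, TNFAIP3 and TNIP1). It was larger for NFKB1, NFKB2, REL and NFKBIA. This is a description for which no test was run and the share of all genes was not counted.

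The order of the groups differed from gene to gene. TNFAIP3 had the order untreated L1236, treated L1236, untreated L428, treated L428, from low to high, and the arrays of treated L1236 and untreated L428 overlapped. NFKBIE had the order untreated L428, treated L428, untreated L1236, treated L1236, and no neighbours overlapped. Treated L1236 had the highest mean for NFKB1, NFKB2, REL, NFKBIA, NFKBIE and TNIP1. Untreated L1236 had the lowest mean for NFKB1, REL, RELA, RELB, TNFAIP3 and TNIP1, and its arrays lay below those of every other group for RELA, TNFAIP3 and TNIP1.

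Several members had more than 1 probe set, and all 19 were tested in a second limma fit over 54613 probe sets. In L1236, 7 of 19 were called higher and 0 lower, and 9.02% of all probe sets were called in either direction. In L428, 2 of 19 were called higher (3.02% of all probe sets called), 1 of 19 was called for the difference of the responses (2.57%), and 9 of 19 were called between the untreated lines (21.1%). In L1236, 18 of 19 probe sets had a positive change. The other one, NFKB2 211524_at, lay at 2.40 to 2.45 in the means of all 4 groups, at the floor, and NFKBIA 231699_at lay at 2.52 to 3.17.

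For TNFAIP3 both probe sets were called in L1236 and between the untreated lines, but not both for the difference of the responses. The second, 202643_s_at, had signals of 10.15, 9.56 and 9.91 in untreated and 11.48, 12.85 and 13.14 in treated L1236, a change of 2.62 ± 0.40 (adjusted p = 0.00462). Between the untreated lines it differed by -3.18 ± 0.40 (adjusted p = 0.000395). For the difference of the responses it had 2.04 ± 0.56 and was not called (adjusted p = 0.119), while 202644_s_at was (adjusted p = 0.0426 in this fit). RELA 201783_s_at was not called in L1236 in this larger fit (adjusted p = 0.0634), and RELA 209878_s_at changed by 0.88 ± 0.29 (adjusted p = 0.103).

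REL had 5 probe sets. The brightest, 228812_at, was not called in L1236, but 235242_at (1.26 ± 0.26, adjusted p = 0.0188), 206036_s_at (1.24 ± 0.30, adjusted p = 0.0349) and 206035_at (1.12 ± 0.25, adjusted p = 0.0283) rose. In L428, 206035_at rose from 4.71, 4.28 and 4.59 to 5.38, 5.38 and 6.27 (1.15 ± 0.25, adjusted p = 0.0493), while the 3 brightest REL probe sets changed by -0.13 to 0.06 there. The probe sets of REL thus disagree on L428, and which transcript forms each one reads was not tested.

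NFKB2 and TNIP1 had probe sets that disagreed between the untreated lines. NFKB2 209636_at was lower in L1236 (-1.79 ± 0.45, adjusted p = 0.0200), while 207535_s_at had 0.57 ± 0.43 and was not called. TNIP1 243423_at, a dimmer probe set with means of 4.68 in L428 and 6.73 in L1236, was higher in L1236 (2.05 ± 0.52, adjusted p = 0.0198), opposite to 207196_s_at at -1.19. For the treatment of L1236 the pairs had the same sign, with 1.58 ± 0.45 (adjusted p = 0.0667) for NFKB2 209636_at and 0.81 ± 0.52 (adjusted p = 0.326) for TNIP1 243423_at. The direction of the NFKB2 and TNIP1 differences between the untreated lines therefore depends on the probe set.

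**Figure D3:**
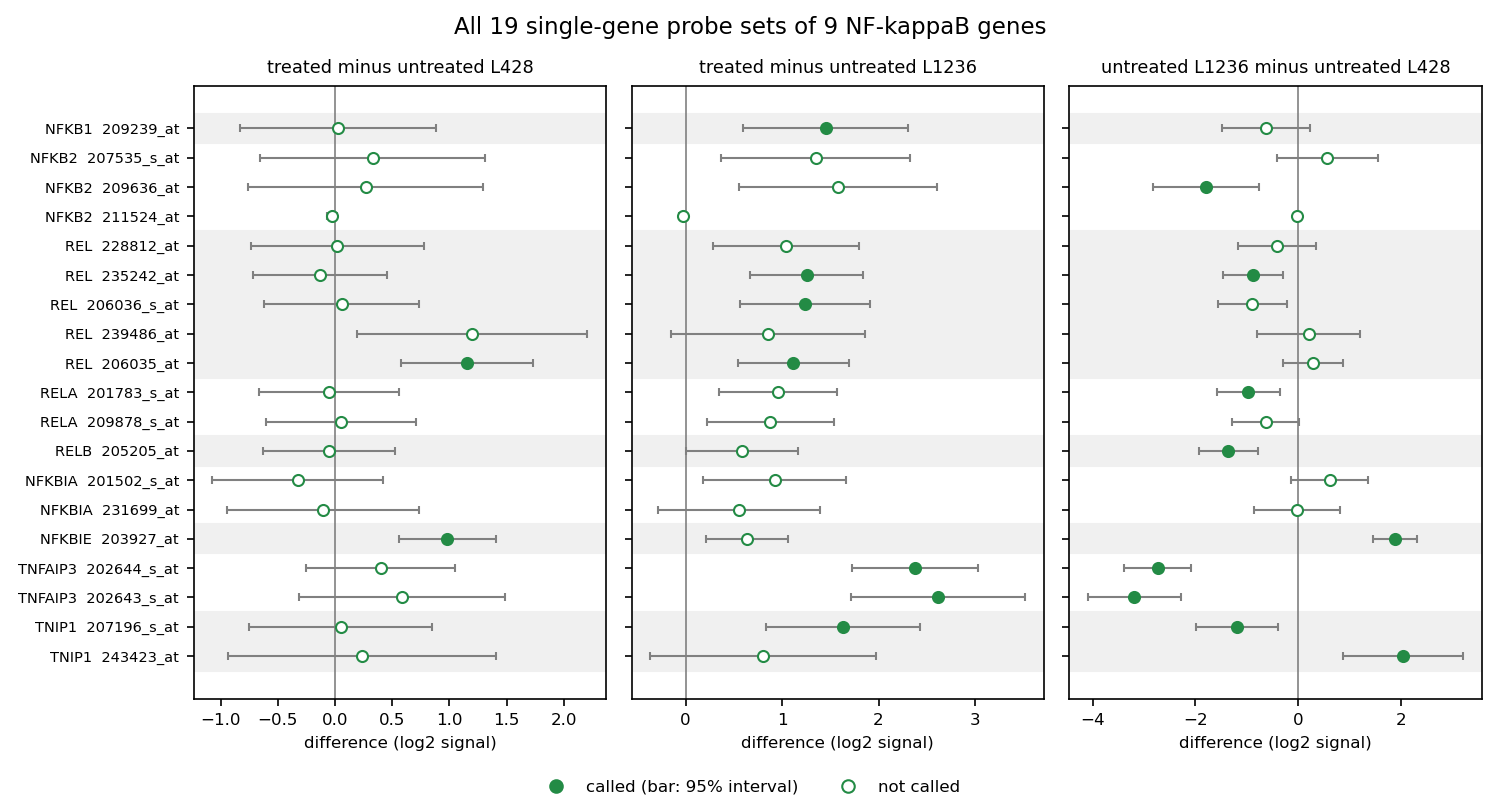
Differences in log2 signal (horizontal axis, its own range in each panel) of 19 probe sets (vertical axis, shaded by gene) for treatment in L428, treatment in L1236 and the untreated lines. Circles are limma estimates with 95% intervals, filled where called over 54613 probe sets. In L1236, 7 circles are filled, all to the right of 0, while between the untreated lines the filled circles lie on both sides, and the TNIP1 pair on opposite sides.

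The 2 probe sets annotated to both MIR8085 and BCL3 were not called for treatment in either line. The brighter one, 204908_s_at, had signals of 7.96, 7.40 and 7.09 in untreated and 7.16, 6.91 and 7.11 in treated L428. It had 8.61, 8.45 and 8.47 in untreated and 8.28, 8.52 and 9.16 in treated L1236. It was higher in untreated L1236 than in untreated L428 by 1.03 ± 0.26 (adjusted p = 0.0189 over all probe sets). The dimmer one, 204907_s_at, changed by 0.74 ± 0.36 in L1236 (adjusted p = 0.233), where treated replicate 3 stood at 5.62 and the other 5 L1236 arrays at 3.84 to 4.44.

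Other genes of the pathway were taken from lists and are given by their counts in each line. The shares of all genes called higher and lower were 3.32% and 1.34% in L428, and 8.59% and 6.35% in L1236. For the difference of the responses they were 2.66% and 1.96%. Without the arrays numbered 1 they were 14.4% and 14.6% in L428, and 16.7% and 17.7% in L1236. For the difference they were then 11.4% and 12.4%. Of 21 measured IkB kinase and activator genes, 2 rose and 2 fell in L428 (median change -0.12), and 5 rose and 1 fell in L1236 (median 0.32). IKBKB, the gene of the main catalytic IkB kinase, fell in both lines, by 0.61 on the log2 scale in L428 (-0.61 ± 0.11, adjusted p = 0.0203) and by 0.46 in L1236 (-0.46 ± 0.11, adjusted p = 0.0295). IKBKG, the gene of the regulatory subunit NEMO, rose in both, by 0.42 ± 0.10 (adjusted p = 0.0455) in L428 and 0.87 ± 0.10 (adjusted p = 0.000646) in L1236. RBCK1, a subunit of the linear ubiquitin ligase, rose by 1.45 ± 0.14 in L428 (adjusted p = 0.000672) and 0.78 ± 0.14 in L1236 (adjusted p = 0.00676).

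CHUK, the gene of the other catalytic kinase, fell in L428 by 0.52 on the log2 scale (-0.52 ± 0.10, adjusted p = 0.0239). TRAF6, an adaptor that activates the kinases, rose in L1236 by 1.43 ± 0.16 (adjusted p = 0.000658). Without the arrays numbered 1, 4 kinase-list genes were called higher and 7 lower in L428 and 10 higher and 1 lower in L1236.

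Of 14 receptor genes, 3 rose and 0 fell in L428 by limma (0 lower at an unadjusted p below 0.05), and 4 rose and 1 fell in L1236. The shares of all genes were 3.32% and 1.34% in L428 and 8.59% and 6.35% in L1236. The receptors called in L428 sense double-stranded RNA. RIGI rose from 5.61 to 11.78 (6.16 ± 0.63, adjusted p = 0.00103), IFIH1 from 11.19 to 13.16 (1.97 ± 0.38, adjusted p = 0.0232) and TLR3 from 3.19, near the floor, to 6.23 (3.04 ± 0.71, adjusted p = 0.0455). In L1236 the called receptors with the smallest adjusted p belong to the TNF receptor family. TNFRSF1B rose by 1.66 ± 0.31 (adjusted p = 0.00907), CD40 by 1.35 ± 0.31 (adjusted p = 0.0208) and TNFRSF1A by 1.24 ± 0.30 (adjusted p = 0.0272). RIGI was the other receptor called higher in L1236, so the rise of this RNA sensor was not confined to L428. TNFRSF11A (RANK) fell by 0.56 on the log2 scale (-0.56 ± 0.13, adjusted p = 0.0238). By limma, 0 of 14 receptors were called for the difference between the lines' responses, and 3 had an unadjusted p below 0.05. RIGI came closest, with a smaller response in L1236 (difference -3.67 ± 0.89, adjusted p = 0.0551). Without the arrays numbered 1, 6 receptors were higher and 0 lower in L428, 6 higher and 2 lower in L1236, and 0 higher and 5 lower for the difference.

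Of 16 measured genes of other IkB proteins and negative regulators, 1 rose in L428 (median 0.19) and 10 rose in L1236 (median 0.99), beside 3.32% and 8.59% of all genes. For the difference of the responses, 1 of the 16 was called. By limma 0 fell in either line, and 2 in L428 and 1 in L1236 were lower at an unadjusted p below 0.05. NFKBIZ, a nuclear IkB protein that acts as a coactivator of some targets, rose in L1236 from 7.89 to 12.48 (4.59 ± 0.65, adjusted p = 0.00217). NFKBIB, the gene of IkB-beta, rose there by 1.21 ± 0.14 (adjusted p = 0.000698), and its response differed from that of L428 by 1.05 ± 0.19 (adjusted p = 0.0192). ITCH, a ubiquitin ligase that works with A20, rose by 0.97 ± 0.14 (adjusted p = 0.00282). TRAFD1, a feedback regulator of innate signalling, rose in L428 by 1.51 ± 0.16 (adjusted p = 0.00135). Without the arrays numbered 1, 6 were higher and 1 lower in L428 and 11 higher and 2 lower in L1236.

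Of the 37 target genes of NF-kappaB on the list, 36 were measured. In L428, 6 rose, with a median change of 0.94, and in L1236, 24 rose, with a median of 2.01. Over all genes, 3.32% rose in L428 and 8.59% in L1236. By limma 0 of 36 fell in either line, also at an unadjusted p below 0.05. In L1236, the cytokine genes LTB (2.57 ± 0.17, adjusted p = 2.68e-05) and LTA (2.78 ± 0.34, adjusted p = 0.00105) and the chemokine gene CCL17 (3.01 ± 0.20, adjusted p = 2.68e-05) rose. In L428, CXCL10 (4.68 ± 0.42, adjusted p = 0.000545) and CCL5 (1.52 ± 0.29, adjusted p = 0.0217), chemokine genes that interferons also induce, rose together with the stress-response gene IER3 (2.71 ± 0.54, adjusted p = 0.0267). The response of CXCL10 was smaller in L1236 than in L428 (difference -3.40 ± 0.60, adjusted p = 0.0164), and that of LTB was larger (2.55 ± 0.24, adjusted p = 0.000616). Without the arrays numbered 1, 25 targets were higher and 1 lower in L428, and 32 higher and 0 lower in L1236. In that fit 14.4% of all genes were higher in L428 and 16.7% in L1236.

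**Figure D4:**
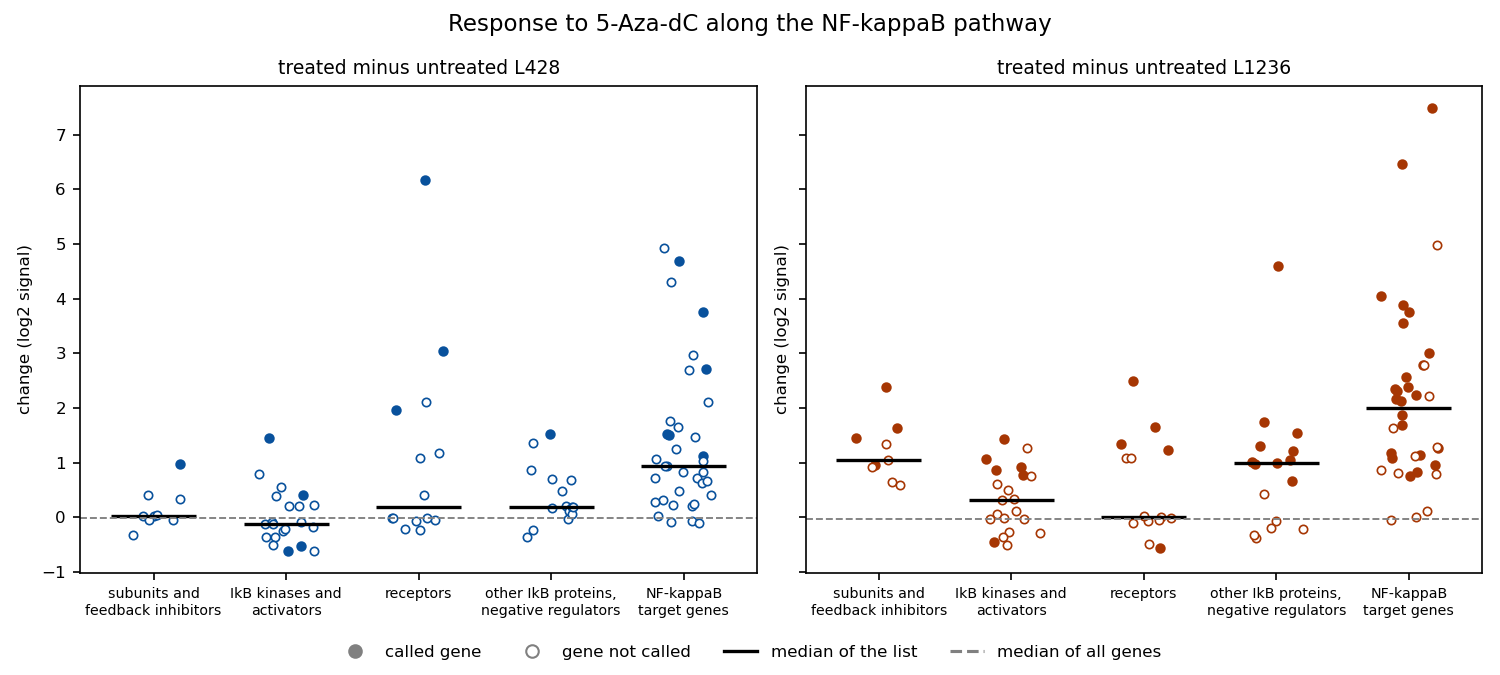
Change in log2 signal after 5-Aza-dC (vertical axis) of single genes in 5 lists (horizontal axis) in L428 (left) and L1236 (right), with points spread sideways for legibility. Filled points are called genes, black bars list medians and the dashed line the median of all genes. The target list has medians of 0.94 in L428 and 2.01 in L1236, and the members have 0.03 and 1.04.

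Markers of other cell types moved in the same arrays, mostly in L1236. Of all genes, 8.59% were called higher in L1236 and 3.32% in L428. The mean signal of 12 stromal, endothelial and epithelial markers was 4.22 to 4.40 in untreated and 5.97 to 6.23 in treated L1236, and 3.72 to 3.83 and 4.10 to 4.12 in L428. Of these, 6 rose in L1236, among them EPCAM (5.37 ± 0.10) and THY1 (5.95 ± 0.23), while COL1A2, COL3A1 and CDH5 stayed at 2.35 to 3.07 in all groups. The mean signal of 10 myeloid markers was 3.24 to 3.27 in untreated and 4.02 to 4.68 in treated L1236, and 3.04 to 3.15 and 3.63 to 3.82 in L428. Of these, 3 rose in L1236 and 2 in L428, TYROBP and AIF1 in both lines, while CD14 and CD163 stayed at 2.26 to 2.61. The mean signal of 14 T-cell and NK-cell markers was 2.56 to 2.65 in untreated and 3.34 to 3.52 in treated L1236, and 2.67 to 2.82 and 2.87 to 3.04 in L428. Of these, 4 rose in L1236 (CD8A, ZAP70, LCK and CD3D) and 1 in L428 (CD2), while CD3E and CD3G stayed at 1.74 to 2.25. The part of the risen markers in the changes of the NF-kappaB genes was not tested.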

How the data were processed

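The deposited table holds 1 log2 signal per probe set and array, which the authors made by RMA (robust multichip average), per the submitters' processing notes; its version is not given in the sources used here. A whole-transcript array is named in the design text, whereas the identifiers belong to a 3' array and were used as they stand. Whether the arrays were normalized together, and how the floor of 2 to 3 arose, is not given, so folds from that level are uncertain in size. The number of arrays limits the precision.

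Gene symbols came from the platform annotation: 41097 probe sets had 1 symbol, 1801 several and 11777 none, and 41043 were matched to RefSeq for current names. The model was fitted by limma 3.58.1 (R 4.3.3): group means over all 12 arrays, no block, the probe set with the highest mean for each of 19775 genes, two-sided, with Benjamini-Hochberg adjustment. A second fit used all 54613 non-control probe sets. The code was tested on simulated data. Promoters were searched with Python 3.11.15.

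The members and lists were chosen with earlier results of these data known. All members are named, and all their probe sets were tested. From each pathway list and line, up to 3 called genes with the smallest adjusted p in each direction were named, or the 1 with the smallest p where none was called; differences between the lines are given for genes so named. Other-cell markers at the floor were chosen after their values were seen.

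Replicate numbers appear in the titles. Deviations from group means of same-numbered arrays of treated and untreated L428 correlated at 0.250, 0.169 and 0.164, so by rule they count as paired, although arrays 2 and 3 correlated as well with each other's number. In L1236 the values were 0.049, -0.018 and 0.063, so treated and untreated arrays of that line were not counted as paired. Between the lines they were 0.360, 0.203 and 0.107 for untreated and 0.400, 0.313 and 0.243 for treated arrays. Same-numbered arrays of the 2 lines thus deviated together, and arrays 2 and 3 again did so across numbers too. Alternatives covered the block, array weights, centring, quantile normalization, the variance trend, a filter on dim genes, the mean of probe sets, the 2 compared groups alone, and arrays left out.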

Additional observations from a re-analysis of the deposited data

Results flagged for a closer look

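The response of TNFAIP3 to 5-Aza-dC differed between the lines by limma's test of the difference itself, with all arrays and no block. The change was 2.37 ± 0.29 in L1236 (higher in 3 of 3 treated arrays than in every untreated array) and 0.40 ± 0.29 in L428 (also 3 of 3), a difference of 1.98 ± 0.41 with adjusted p = 0.0299. The call was lost with the replicate number as a block (adjusted p = 0.0502), with a block within each line (adjusted p = 0.123), with the mean of the probe sets of each gene (adjusted p = 0.0536) and in 9 of 12 fits that left out 1 array.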

How the results depend on the processing

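Across all genes, with all arrays, limma called 920 genes in L428, 2955 in L1236, 914 for the difference of the responses and 5699 between the untreated lines. In the same order, the fit over all probe sets called 1647, 4927, 1403 and 11508. Array weights gave 5103, 9469 and 4389 in the first 3, and leaving out the arrays numbered 1 gave 5717, 6817 and 4697. The fit to the 2 compared groups alone called 206 in L428 and 2348 in L1236. Without dim genes, 1108, 2842 and 689 of 9888 genes were called in the first 3 comparisons. With the replicate block over both lines the counts were 1129, 3457, 781 and 6039, and with a block within each line (an alternative chosen after seeing the data) 850, 2510 and 497. Leaving out 1 array gave 368 to 3532, 1506 to 4488, 442 to 2112 and 4858 to 5756. Counts that grow without arrays numbered 1 rest on 2 arrays a group.

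Of the 9 members, 1, 4, 1 and 5 were called in these comparisons. In L428 the count was 0 with the 2 groups alone or a block within the line, 3 without arrays numbered 1, and 0 to 1 with 1 array left out. In L1236 it was 1 with the 2 groups alone, 2 with the block within the line, and 1 to 9 with 1 array left out. It was 9 with array weights (9469 of 19775 genes called), 8 without dim genes (2842 of 9888) and 9 without arrays numbered 1 (6817 of 19775). For the difference it was 0 with the mean of a gene's probe sets and with either replicate block, and 0 to 5 with 1 array left out. It was 8 with array weights (4389 of 19775 genes called) and 9 without arrays numbered 1 (4697 of 19775). Between the untreated lines it was 3 with the mean of probe sets, 8 without arrays numbered 1, and 3 to 5 with 1 array left out. The replicate block over both lines changed 2 of 36 member calls (NFKBIA in L1236 and the TNFAIP3 difference), and the block within each line 4 of 27. The causes were not tested.

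Sign changes were seen for changes in L428 that were not called. NFKB1 turned to -0.010 with array weights and -0.089 without arrays numbered 1, and ran from -0.27 to 0.21 with 1 array left out. With 1 array left out, NFKB2 ran from -0.015 to 0.52, REL from -0.10 to 0.24, RELA from -0.30 to 0.081, RELB from -0.21 to 0.096 and TNIP1 from -0.17 to 0.24. TNIP1 turned to -0.21 with array weights and -0.20 without arrays numbered 1. Between the untreated lines, the mean of probe sets gave -0.41 for NFKB2 and 0.43 for TNIP1. No change that was called turned its sign except that of TNIP1 between the untreated lines.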
